A study of Mus musculus with 8 samples.

Results

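The phospholipid scramblase genes Plscr1, Plscr2, Plscr3 and Plscr4 were examined in RNA-seq of cultured Lewis lung carcinoma (LLC) cells, a mouse lung tumor line. The members were matched by symbol, are 4 of the 55487 genes in the count table, and all 4 were among the 14228 genes with enough counts to be tested. The family was taken up because of the value of Plscr2 in the comparison of the genotypes, so that value is described here without a test. The libraries comprised 4 biological replicates of wild-type LLC cells and 4 of Ago2 knock-out (ΔAgo2) LLC cells, all labelled as batch 1. The ΔAgo2 cells had received a lentiviral CRISPR-Cas9 vector with a guide against Ago2 and had been selected with puromycin, and the methods mention no control vector in the wild-type cells. Single-cell clones were also derived, and the labels do not say whether the ΔAgo2 libraries came from 1 clone or several, so a trait of a clone and the loss of Ago2 cannot be told apart. Ago2 encodes the Argonaute protein that cleaves or represses transcripts paired with a small RNA.

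Cells keep different phospholipids in the inner and outer leaflets of their membranes, with phosphatidylserine held inside. Flippases pump lipids inward and floppases outward at the cost of ATP, whereas scramblases let lipids cross in both directions and so erase the difference. The phospholipid scramblase (PLSCR) proteins are calcium-binding membrane proteins. Plscr1 is also known as an interferon-inducible gene whose product can enter the nucleus, and Plscr3 encodes a mitochondrial protein linked to cardiolipin transport. How far the PLSCR proteins scramble lipids themselves is disputed, and the anoctamin Ano6 and the Xkr8 protein are the better established plasma membrane scramblases.

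Plscr1, Plscr2 and Plscr4 lie in a row on the plus strand of chromosome 9 in GRCm38 (mm10). Plscr1 (ENSMUSG00000032369.13) spans chr9:92249750-92272278, Plscr2 (ENSMUSG00000032372.14) spans chr9:92275602-92297752 and Plscr4 (ENSMUSG00000032377.8) spans chr9:92457373-92492456. The end of Plscr1 is 3.32 kb from the start of Plscr2, and Plscr4 begins 160 kb after Plscr2. Plscr3 (ENSMUSG00000019461.12) lies apart from them, on the plus strand at chr11:69846376-69852058.

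Plscr2 and Plscr1 are the closest pair of the family. Their coding sequences were identical at 773 of 917 aligned bases (84.3%), against 69.8% to 75.5% for the other pairs among the 4 members. A stretch where short reads would have little to separate the genes was sought among coding windows of 100 bases. Windows across exon junctions of Plscr2 and in untranslated regions were left out of that search. The coding stretch below is the window in a single exon of Plscr2, aligned without gaps, that was most like Plscr1. It covers bases 350 to 449 of the Plscr2 coding sequence in exon 5, at chr9:92290639-92290738 (plus strand, GENCODE transcripts of GRCm38), and bases 383 to 482 of that of Plscr1 in exon 6, at chr9:92266391-92266490. Capitals in the Plscr1 line mark the bases that differ from Plscr2, and 94 of the 100 bases are the same.
Plscr2: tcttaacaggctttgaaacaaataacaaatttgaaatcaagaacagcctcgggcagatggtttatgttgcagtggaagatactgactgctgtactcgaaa
Plscr1: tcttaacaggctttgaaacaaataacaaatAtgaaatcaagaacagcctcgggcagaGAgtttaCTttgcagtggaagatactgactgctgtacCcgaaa
Even so, 0 stretches of 100 bases, the read length, and 0 of 50 bases were shared between any members in the annotated transcripts. Of the 100-base stretches, 4.5% of those in Plscr1 also occurred in the pseudogene Gm5530, which had 1 to 13 counts, and 20.1% of those in Plscr3 occurred in Tnk1, which overlaps the end of Plscr3 by 1.05 kb on the opposite strand and had at most 3 counts. None of the 100-base stretches in Plscr2 or Plscr4 occurred in another gene. At 50 bases, 1.99% of the stretches in Plscr2 occurred in other genes, 410 in number, and 0 of those in Plscr4 did. The shares at 50 bases were 12.3% for Plscr1, with Gm5530, and 24.2% for Plscr3, with Tnk1.

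The libraries held 39628101 to 68530912 counts on genes. Wild-type replicate 4 stood apart from the rest. Its median rank correlation with its own group was 0.864, against 0.948 to 0.986 for the other 7 libraries. Its share of mitochondrial counts was 0.54% against 2.39% to 4.51%. Its deviation from the mean of the other wild-type libraries rose with the GC content of a gene (Spearman's rho = 0.722 across genes). The same rho was -0.509 to -0.427 in wild-type replicates 1 to 3, whose comparison included replicate 4. In the ΔAgo2 libraries it was -0.157 to 0.336. The Ago2 transcript did not separate the genotypes, at 3842 to 34965 counts in wild-type and 12319 to 23871 in ΔAgo2 libraries. Its log2 fold change was 0.21 (SE 0.40, adjusted p = 0.908, edgeR's quasi-likelihood test, adjusted over all tested genes by the Benjamini-Hochberg method). These counts thus give no check of the knockout. The paper probed Ago2 protein in wild-type and ΔAgo2 LLC cells by western blot, which is not part of these data. The epithelial keratins Krt8 and Krt18 were expressed, Krt18 at 497 ± 313 TPM (a level per gene length and library total; SD, n = 4) in wild-type cells and Krt8 with 2570 counts or more in every library, whereas the epithelial adhesion genes Epcam and Cdh1 had at most 1 and 9 counts. The immune markers Ptprc, Cd3e, Itgam and Adgre1 had 3 counts or fewer in every library. Summed endothelial markers (Pecam1, Cdh5, Kdr and Tek) were at 0.04 to 0.35 TPM in wild-type and 0.17 to 0.77 TPM in ΔAgo2 libraries. Summed fibroblast markers were at 4.15 to 25.1 and 14.3 to 30.5 TPM. Pdgfra had the highest means among them, at 10.1 TPM in wild-type and 19 TPM in ΔAgo2 cells. Dcn had means of 1.48 and 1.65 TPM, with 21 to 413 counts. Lum had at most 32 counts and Thy1 at most 2. The part of the fibroblast markers in the results below was not tested.

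Plscr2 was weakly expressed in wild-type LLC cells and moderately expressed in ΔAgo2 cells. In TPM, Plscr2 was at 2.92, 1.78, 2.99 and 1.26 in wild-type replicates 1 to 4, and at 33.1, 32.1, 44 and 35 in ΔAgo2 replicates 1 to 4. All 4 ΔAgo2 libraries lay above all 4 wild-type libraries, by a wide margin compared with the spread inside each group. Values of groups that do not overlap in either direction were found for 6.07% of the genes tested (3.09% with the ΔAgo2 libraries higher), or 12.1% without wild-type replicate 4, and since Plscr2 was chosen on this contrast nothing is read from its place among them. The counts behind these levels were 148, 102, 187 and 58 in wild-type and 1716, 1185, 1689 and 1664 in ΔAgo2 libraries, all well over 3 counts, the limit used here for a gene at the floor. As CPM, counts scaled to library sizes adjusted with TMM factors, Plscr2 was at 2.26 ± 0.754 (SD, n = 4) in wild-type and 32.2 ± 6.32 (SD, n = 4) in ΔAgo2 cells, a 14.3-fold difference. The fitted log2 fold change was 3.83 (SE 0.35), and 3.76 (SE 0.32) without wild-type replicate 4. Its level passed that of 20.6% of the tested genes in wild-type and of 67.3% in ΔAgo2 cells. In bulk RNA a larger number of expressing cells and more RNA per cell cannot be told apart.

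**Figure D1:**
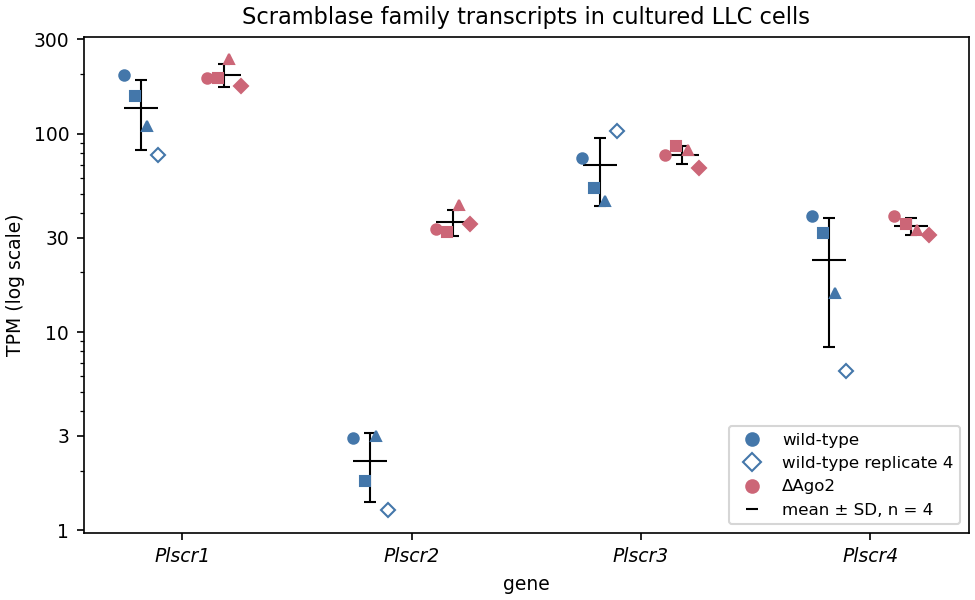
Levels of the 4 family members in TPM (log axis) in each wild-type and ΔAgo2 library, with the mean and SD of 4 libraries and wild-type replicate 4 as an open symbol. Plscr2 is the only member whose groups do not overlap, at 1.26 to 2.99 TPM in wild-type and 32.1 to 44 TPM in ΔAgo2 libraries.

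For the other 3 members no difference between the genotypes beyond the spread of the libraries was found. An adjusted p under 0.05 was reached by 0 of these 3 genes with edgeR, where 42 of 14228 genes (0.295%) reached it, 0.0773% as higher and 0.218% as lower in ΔAgo2 cells, and by 0 of 3 with DESeq2, where 2.23% of genes did. An unadjusted p under 0.05 in edgeR was found for 0 of the 3 and for 7.34% of all tested genes. The 42 calls themselves depended on single libraries, running from 1 to 113 as each was left out in turn. Without wild-type replicate 4, where 0.777% of the genes tested were called, 0 of these 3 genes were.

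Plscr1, the immediate neighbor of Plscr2, was the most abundant member and among the highly expressed genes of these cells. Plscr1 was at 198, 155, 109 and 78.1 TPM in wild-type replicates 1 to 4 and at 191, 191, 238 and 175 TPM in ΔAgo2 replicates 1 to 4. The ΔAgo2 libraries lay close together, and wild-type replicate 1 fell among them while the others were lower. The means were 135 ± 52.5 and 199 ± 27.4 TPM (SD, n = 4 each), and the log2 fold change of the counts was 0.39 (SE 0.29, adjusted p = 0.763, edgeR). With the counts corrected for the GC content of genes in each library, the log2 fold change of Plscr1 was 0.035.

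Plscr4, the last member of the chromosome 9 row, showed the widest spread in wild-type cells. It was at 38.3, 31.6, 15.7 and 6.33 TPM in wild-type replicates 1 to 4, against 38.4, 35, 32.9 and 30.8 TPM in ΔAgo2 replicates 1 to 4. The groups overlapped, since wild-type replicates 1 and 2 stood within the ΔAgo2 range, and wild-type replicate 4 was far below it. The coefficient of variation was 63.5% in wild-type and 9.47% in ΔAgo2 libraries. The means were 23 ± 14.6 and 34.3 ± 3.25 TPM (SD, n = 4 each), with a log2 fold change of 0.45 (SE 0.41, adjusted p = 0.795, edgeR) and of 0.21 without wild-type replicate 4.

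Plscr3, the mitochondrial member, was at 75.8, 53.2, 45.6 and 104 TPM in wild-type replicates 1 to 4 and at 78.4, 86.4, 82.5 and 67 TPM in ΔAgo2 replicates 1 to 4. The ΔAgo2 libraries fell inside the wild-type range. Wild-type replicate 4 held the highest Plscr3 level of all 8 libraries, while it held the lowest TPM of each chromosome 9 member. Plscr3 is also the member richest in GC, at 55.4% of the bases of its longest transcript against 41.4% to 43.9% for the others. The means were 69.5 ± 26 and 78.6 ± 8.39 TPM (SD, n = 4 each). The log2 fold change of Plscr3 was -0.16 (SE 0.40, adjusted p = 0.935, edgeR), 0.03 when scaled to library size alone, 0.21 with the GC correction and 0.37 without wild-type replicate 4, so no direction can be given. For comparison, the median log2 fold change of the counts over all tested genes was -0.11 (edgeR).

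The chromosome 9 genes were next set against Plscr3 inside each library, a ratio from which the scaling of the library drops out. An effect of GC content need not drop out, and the ratios were not corrected for it. The log2 ratio of Plscr1 to Plscr3 in TPM, with 0.1 TPM added to each, was 1.38, 1.54, 1.25 and -0.41 in wild-type replicates 1 to 4 and 1.28, 1.14, 1.53 and 1.38 in ΔAgo2 replicates 1 to 4. That of Plscr4 to Plscr3 was -0.98, -0.75, -1.53 and -4.01 in wild-type and -1.03, -1.30, -1.32 and -1.12 in ΔAgo2 libraries. In both ratios the ranges of wild-type replicates 1 to 3 and of the ΔAgo2 libraries overlapped and wild-type replicate 4 lay far below. The difference of the means was 0.39 for Plscr1 (p = 0.657, 0.714 adjusted over the 2 ratios) and 0.63 for Plscr4 (p = 0.714 before and after adjustment) by a two-sided exact permutation test, which cannot go below 0.0286 with 4 libraries against 4. Without wild-type replicate 4 the differences were -0.059 for Plscr1 and -0.10 for Plscr4, with exact permutation p = 0.743 and 0.629. The Plscr2 to Plscr3 ratio was -4.65, -4.83, -3.89 and -6.25 in wild-type and -1.24, -1.42, -0.90 and -0.94 in ΔAgo2 libraries, a difference of 3.78, or of 3.33 without wild-type replicate 4. Of the 3 ratios, this was the one without overlap between the groups.

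**Figure D2:**
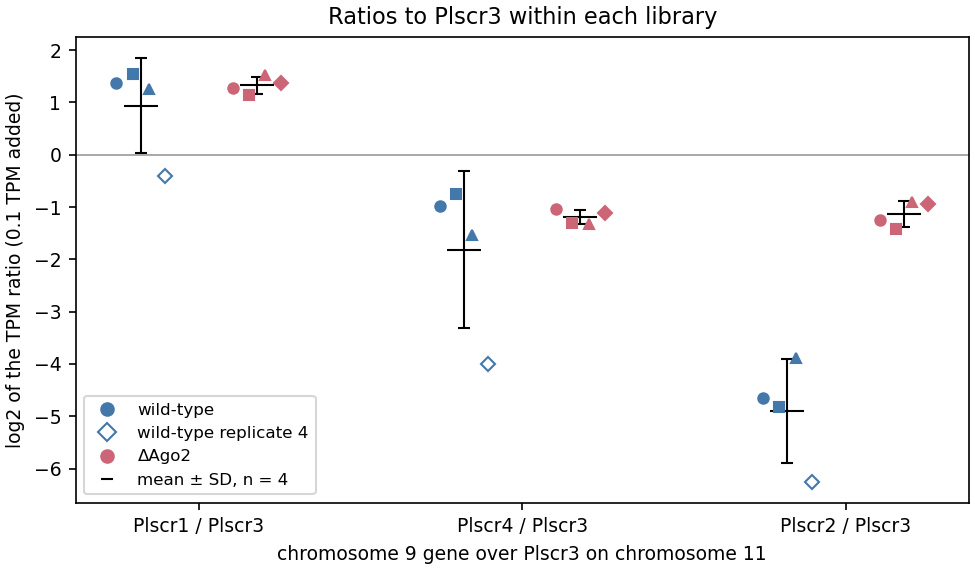
Log2 ratio of the TPM of each chromosome 9 member to that of Plscr3 in every library, with 0.1 TPM added and the mean and SD of 4 libraries. The Plscr1 and Plscr4 ratios of the ΔAgo2 cells overlap those of wild-type replicates 1 to 3, whereas the Plscr2 ratio moves from a mean of -4.90 to -1.13.

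The make-up of the family's transcripts follows from these levels. TPM over all tested genes ran higher in ΔAgo2 cells, with a median log2 fold change of 0.22 with 0.1 TPM added (limma). That median was 0.15 with 1 TPM added and -0.11 in the counts (edgeR). Beside this shift, the summed level of the 4 genes was 230 ± 63.8 TPM in wild-type and 348 ± 37.3 TPM in ΔAgo2 cells (SD, n = 4 each), and was not tested. Plscr1 gave 57.8% ± 11 of it in wild-type and 57% ± 2 in ΔAgo2 cells, Plscr3 31.8% ± 15.4 and 22.7% ± 1.88, and Plscr4 9.41% ± 4.39 and 9.93% ± 1.23. The share of Plscr2 was 1.01% ± 0.489 in wild-type and 10.4% ± 0.992 in ΔAgo2 cells. Plscr2 thus went from a trace to about the level of Plscr4.

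By TPM the order in wild-type replicates 1 to 3 was Plscr1, Plscr3, Plscr4 and Plscr2 from highest to lowest, and in wild-type replicate 4 Plscr3 stood above Plscr1. Of the wild-type neighbors in that order, Plscr1 and Plscr3 overlapped in range, while Plscr3 was above Plscr4 and Plscr4 above Plscr2 without overlap. In ΔAgo2 cells Plscr1, at 175 TPM or more, was above Plscr3, at 86.4 TPM or less, and Plscr3 was above the other two. Plscr2 and Plscr4 could not be ranked there, as Plscr4 was the higher in ΔAgo2 replicates 1 and 2 and Plscr2 in replicates 3 and 4.

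Among libraries of the same genotype, Plscr1 and Plscr4 varied together. Over the deviations of log2 CPM from the group means in the 8 libraries, Pearson's r was 0.743 for Plscr1 with Plscr4, and 0.847 over the 7 libraries other than wild-type replicate 4. Plscr3 went with Plscr1 and Plscr4 only when that library was left out, with r of 0.908 and 0.8 in place of 0.189 and -0.402. Plscr2 followed its neighbors less closely, at 0.5 with Plscr1 and 0.243 with Plscr4, and 0.45 and 0.0126 without wild-type replicate 4. These values describe 8 libraries that share genotype means and scaling and were not tested.

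Next to Plscr2 and the other genes of the chromosome 9 row lay both silent and expressed genes. Plscr5, the fifth scramblase of the family and 40 kb before Plscr1, had 0 counts in all 8 libraries, which allows at most 3 counts in each. The gene 1700057G04Rik, which lies between Plscr2 and Plscr4, had 2 counts or fewer. Plod2, which encodes a collagen lysyl hydroxylase and begins 49.8 kb after Plscr4, was at 90.1 ± 48.5 TPM in wild-type and 138 ± 10.4 TPM in ΔAgo2 cells (SD, n = 4 each; log2 fold change 0.50, SE 0.38, adjusted p = 0.767, edgeR). The nearest expressed genes on either side of Plscr2, Plscr1 before it and Plscr4 and Plod2 after it, were thus not called.

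Further out, the log2 fold changes on the chromosome 9 side were -0.67 for Adamts7, -0.14 for Tbc1d2b, 0.26 for 1190002N15Rik, 0.80 for Slc9a9, -0.31 for Chst2 and 0.33 for U2surp. The transcription factor genes Zic1 and Zic4 had at most 15 and 14 counts in wild-type and 0 counts in the ΔAgo2 libraries, and were too low for edgeR's filter. Next to Plscr3 on chromosome 11, the log2 fold changes were -0.50 for the neuroligin gene Nlgn2, -0.83 for Tmem256, -0.38 for Tmem95, -0.037 for Kctd11, 0.13 for 2810408A11Rik, -0.48 for Neurl4 and -2.03 for Acap1, which encodes an Arf GTPase-activating protein. Acap1 was at 3.66 ± 1.44 TPM in wild-type and 1.14 ± 0.436 TPM in ΔAgo2 cells (SD, n = 4 each). Gm39566, Spem2 and Spem1 had at most 10 counts. None of the neighbors passed the threshold with edgeR, where 0.295% of all tested genes did, with Acap1 the nearest (adjusted p = 0.244, unadjusted p = 0.00267). DESeq2 called 3, Acap1 (adjusted p = 0.00463), Zic1 (0.0174) and Zic4 (0.0322), all lower in ΔAgo2 cells, where it called 2.23% of the genes it tested.

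**Figure D3:**
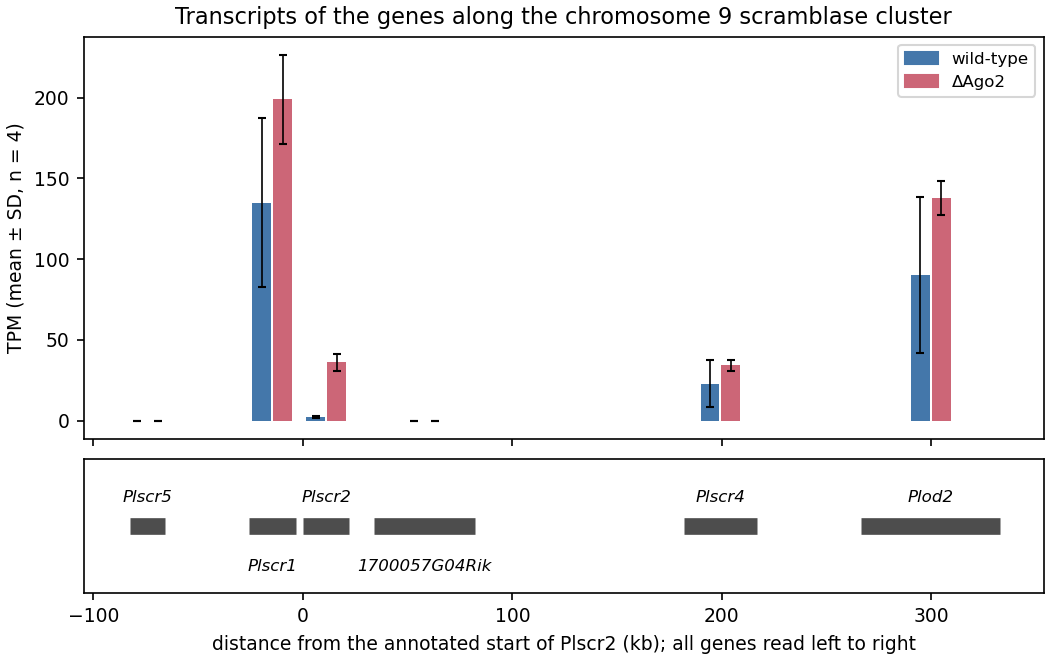
Mean TPM and SD (n = 4) of the genes along the chromosome 9 row in wild-type and ΔAgo2 cells, placed by distance in kb from the start of Plscr2, with the genes drawn to scale below. Plscr2 goes from 2.24 to 36.1 TPM between an abundant Plscr1 and 1700057G04Rik, which had 2 counts or fewer.

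The other genes that move lipids between leaflets were examined for the same comparison, as lists that leave out the 4 members. None of the scramblase, flippase or floppase lists held a gene with an adjusted p under 0.05 by edgeR, and DESeq2 called 0, 0 and 1 of their genes. Over all tested genes edgeR called 0.295% and DESeq2 2.23%. Of 22 scramblase genes 13 were tested, 4 with a log2 fold change above 0 and 9 below, with a median of -0.15 beside -0.11 over all tested genes. The anoctamin Ano3 was at 2.12 ± 1.29 TPM in wild-type and 5.5 ± 2.45 TPM in ΔAgo2 cells (SD, n = 4 each; log2 fold change 1.29, adjusted p = 0.669, edgeR), and was the 1 gene of the list with an unadjusted p under 0.05, where 7.34% of all tested genes had one. Nptn, a partner of Xkr8, had a log2 fold change of 0.50, and the autophagy scramblase gene Atg9b one of -1.78 that came with 3.58 to 135 TPM among wild-type libraries. Of the established scramblase genes, Ano6 was at 53 ± 26.3 and 52.4 ± 6.12 TPM in wild-type and ΔAgo2 cells and Xkr8 at 8.79 ± 2.46 and 9.95 ± 0.984 TPM (SD, n = 4 each).

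Of 18 flippase genes 10 were tested, 8 with a log2 fold change above 0 and 2 below, with a median of 0.14, and 0 had an unadjusted p under 0.05. The 3 with the smallest p were Atp10d (-1.22), Atp8b3 (-0.85) and Atp11a (0.36), on the log2 scale. Tmem30a, the shared subunit most flippases need, was at 88 ± 55.2 TPM in wild-type and 116 ± 19.6 TPM in ΔAgo2 cells (SD, n = 4 each). Of 5 floppase genes 4 were tested, 2 with a log2 fold change above 0 and 2 below, with a median of -0.064, and 1 in each direction had an unadjusted p under 0.05. Abcg1, a sterol exporter, was listed at 0.03, 0.01, 0.07 and 0.03 TPM in wild-type libraries. It was at 0.29, 0.47, 0.23 and 0.15 TPM in ΔAgo2 libraries, with at most 40 counts in any library. Its log2 fold change was 2.84 (SE 0.66, adjusted p = 0.172, edgeR), and DESeq2 called it (adjusted p = 0.00366). Abca7 had a log2 fold change of -0.93, and Abcc1 one of -0.33.

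Genes that read or handle the transported lipids at the cell surface and in mitochondria also gave 0 calls, by edgeR and by DESeq2. Over all tested genes the shares called were 0.295% and 2.23%, so few calls would be looked for in lists of this size. Of 10 genes for the recognition of exposed phosphatidylserine 7 were tested, 3 with a log2 fold change above 0 and 4 below, with a median of -0.033, and 0 had an unadjusted p under 0.05. Axl, a receptor that binds phosphatidylserine through Gas6, was at 342, 412, 498 and 429 TPM in wild-type and 758, 721, 690 and 643 TPM in ΔAgo2 libraries. Its log2 fold change in counts was 0.50 (SE 0.28, adjusted p = 0.729, edgeR). TPM also ran higher in ΔAgo2 cells over all tested genes, at a median log2 fold change of 0.22 with 0.1 TPM added (limma). The bridging protein gene Mfge8 had a log2 fold change of -0.74 and the receptor gene Tyro3 one of -0.23. All 10 cardiolipin genes were tested, 4 with a log2 fold change above 0 and 6 below, with a median of -0.19, and 1 in each direction had an unadjusted p under 0.05. Lclat1, a cardiolipin acyltransferase gene, was at 36.3 ± 16.1 TPM in wild-type and 70.3 ± 8.23 TPM in ΔAgo2 cells (SD, n = 4 each; log2 fold change 0.85, adjusted p = 0.524, edgeR). Triap1, which helps carry phosphatidic acid into mitochondria, had a log2 fold change of -0.58, and the cardiolipin synthase gene Crls1 one of 0.54.

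**Figure D4:**
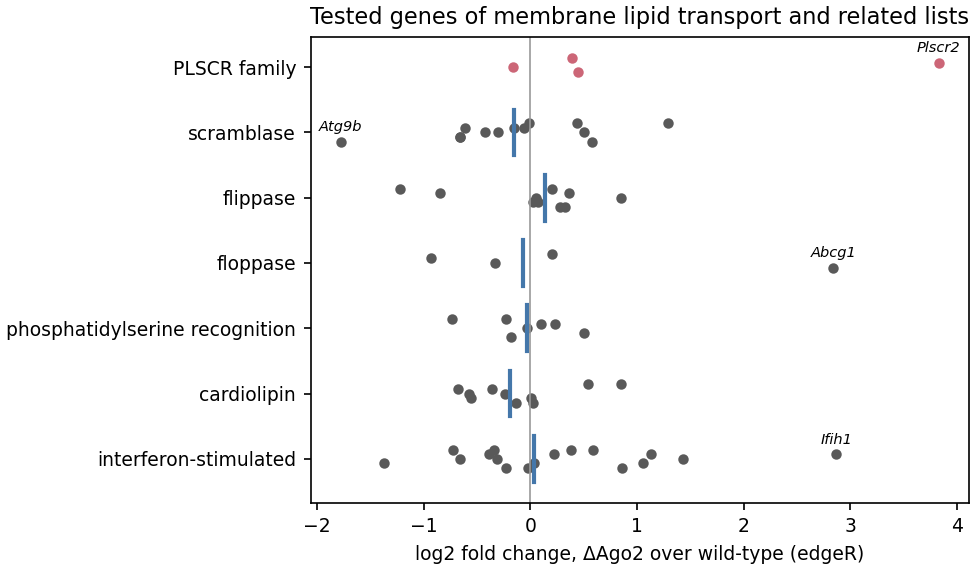
Log2 fold changes (edgeR, ΔAgo2 over wild-type) of the family and of the tested genes of 6 lists, with the median of each list as a bar. Plscr2 lies at 3.83, and among the listed genes only Ifih1 at 2.87 and Abcg1 at 2.84 lie above 2.

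Interferon-stimulated genes were counted because Plscr1 is one of their number. Of 22 such genes 17 were tested, and 0 had an adjusted p under 0.05 by edgeR, where 0.295% of all tested genes did. The log2 fold change was above 0 in 9 and below 0 in 8, with a median of 0.038, and 3 had an unadjusted p under 0.05 in the higher and 1 in the lower direction, where 7.34% of all tested genes had one in either direction. Ifih1, which encodes the double-stranded RNA sensor Mda5, was at 0.18, 0.12, 0.31 and 0.01 TPM in wild-type and 1.41, 1.35, 1.12 and 1.02 TPM in ΔAgo2 libraries. Its log2 fold change was 2.87 (SE 0.67, adjusted p = 0.18, edgeR). It passed without wild-type replicate 4 (2.53, adjusted p = 0.0401), where edgeR called 0.777% of the genes tested, and with DESeq2 (adjusted p = 0.000133), which called 2.23%. Parp14 had a log2 fold change of 1.13 and Usp18 one of -1.37.

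The genes whose log2 CPM ran most like each member over the 8 libraries differed from member to member. For Plscr2 they were Celf2 (Pearson's r = 0.986), an RNA-binding protein gene, Pard3b (0.978) and Rnf152 (0.971), each near 0 in wild-type cells, at 0.11 ± 0.049, 0.192 ± 0.104 and 0.0225 ± 0.0206 TPM, and at 0.92 ± 0.128, 1.35 ± 0.219 and 0.383 ± 0.09 TPM in ΔAgo2 cells (SD, n = 4 each). Their levels in ΔAgo2 cells were all far under that of Plscr2. For Plscr1 they were Tes (0.975), Lipg (0.972) and Hoxb3os (0.971). For Plscr3 they were Uqcrfs1 (0.994), a subunit gene of mitochondrial complex III, Vegfb (0.988) and Tmem37 (0.988), and for Plscr4 the little-counted Gm43924 (0.977) and Gm11847 (0.974) and the gene 5430430B14Rik (0.973). These genes were picked for their likeness out of 14228, so their values are a description. The correlations include the genotype difference on which Plscr2 was chosen and the deviation of wild-type replicate 4. They were not computed without that library.

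Because Ago2 acts through small RNAs, the annotated 3′ untranslated regions were searched for the complement of bases 2 to 8, the seed, of 10 common microRNAs. The 3′ untranslated region of Plscr2, 551 bases in the transcript used, held 0 of the 10 matches. That of Plscr1 (690 bases) held 1, for miR-200b-3p, that of Plscr3 (1658 bases) held 3, for miR-17-5p, miR-155-5p and miR-26a-5p, and that of Plscr4 (1649 bases) held 3, for miR-17-5p, miR-155-5p and miR-16-5p. The sites shared between the chromosome 11 member and a chromosome 9 member are shown with the microRNA (RefSeq), its seed and the matching bases in capitals. The miR-17-5p match lies at chr11:69850804-69850810 in Plscr3 and at chr9:92492261-92492267 in Plscr4, both on the plus strand of GRCm38.
miR-17-5p: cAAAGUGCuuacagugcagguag
Plscr3: acccttcccttatgGCACTTTa
Plscr4: cacaccccattctaGCACTTTg
The miR-155-5p match lies at chr11:69851433-69851439 in Plscr3 and at chr9:92490994-92491000 in Plscr4.
miR-155-5p: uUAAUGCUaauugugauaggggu
Plscr3: cagggctcggaggaAGCATTAg
Plscr4: catatacagatacaAGCATTAc
Among 20548 annotated 3′ untranslated regions, 10.9% held the miR-17-5p match and 7.54% the miR-155-5p match. The shares for the other matches found in the family were 12.3% for miR-200b-3p, 8.86% for miR-26a-5p and 18.4% for miR-16-5p. A match of letters is no measure of binding, and the absence of 10 seeds from Plscr2 says nothing of other small RNAs.

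Promoter windows of 250 bases before to 50 after the start were read from RefSeq (GRCm38.p6), which gave 1 for Plscr1, 3 for Plscr3 and 1 for Plscr4. There was no entry for Plscr2, so its promoter was not searched. The windows of the other members are described here. They were searched on both strands for 7 motifs. These were the interferon-stimulated response element (ISRE), the gamma-activated site TTCNNNGAA, the AP-1 site TGACTCA, the TATA box spelled TATAAA, the CCAAT box, the GC box spelled GGGCGG and the E-box spelled CACGTG. Plscr1, the interferon-inducible member, held TTCCGAGAA 90 bases before its start, a match to the gamma-activated site found in 8.3% of 32851 promoters, and overlapping GC boxes at its start. Plscr3 held GC boxes alone, a motif found in 35.7% of promoters, and Plscr4 held none of the 7. The ISRE, in 3.44% of promoters, was in none of these windows.

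The size of the Plscr2 difference changed little with the processing. Over 17 alternative settings of scaling, tool, filter, unit and libraries, its log2 fold change ran from 3.37, with the GC correction, to 4.02. The log2 fold change of Plscr1 stayed above 0 in all 17 (0.035 to 0.65), as did that of Plscr4 (0.21 to 0.89), and that of Plscr3 ran from -0.37 to 0.37. The adjusted p of these 3 genes ran from 0.538 to 0.999 over the settings (edgeR, DESeq2 or limma).

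**Figure D5:**
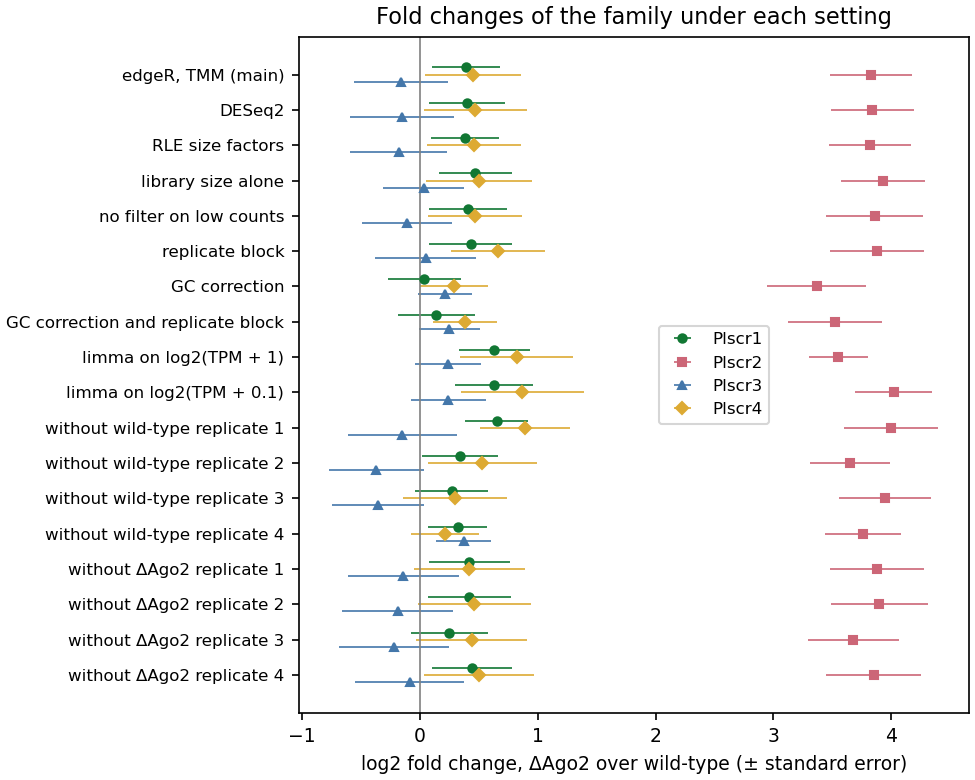
Log2 fold change (ΔAgo2 over wild-type, with its standard error) of the 4 members under the reported setting and 17 alternatives. Plscr2 stays between 3.37 and 4.02, Plscr1 lies between 0.035 and 0.65, Plscr4 between 0.21 and 0.89, and Plscr3 on both sides of 0.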

How the data were processed

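RNA was sequenced from 4 wild-type and 4 ΔAgo2 LLC cultures with a stranded, paired-end protocol of 100-base reads. The authors mapped reads to ribosomal RNAs and then to mm10 (STAR, per the submitters' processing notes), and featureCounts gave the deposited counts, which are whole reads for each gene without normalization. The strand setting and annotation release are not given in the sources used here. A second deposited table gives the authors' TPM, in which each count is divided by the length of its gene and every library sums to the same total. Totals were 39628101 to 68530912 counts. Groups came from the labels, and p-values measure the spread between these cultures.

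Identifiers were matched without version to GENCODE vM21 (GRCm38), and 93 had no match. Genes passing filterByExpr (14228) were scaled with TMM and tested two-sided with edgeR 4.0.16 (R 4.3.3), with Benjamini-Hochberg adjustment over all of them and no term besides genotype. The standard error was taken as the log2 fold change over the square root of F. Ratios were tested by exact permutation (scipy 1.17.1). Coding sequences were aligned with Biopython 1.88. A floor of 3 counts was used, and limits from counts cover counting error only.

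The members, the gene lists and the motifs and microRNAs searched were chosen with earlier results of these data known. Named genes are the members and Ago2, from each list those with an adjusted p under 0.05 and then the 3 with the smallest p, the 5 coding genes nearest on each side of both loci, and for each member the 3 genes of highest correlation. Cell type markers were a separate list. Ano6, Xkr8, Tmem30a, Gm5530, Tnk1 and 1700057G04Rik were named outside this rule after their values were seen. Single values of some listed genes are not reported here.

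Alternatives were DESeq2 1.42.0, RLE factors, library size alone, no filter beyond 1 count, the replicate number as a block, a lowess correction for GC content without and with the block, limma 3.58.1 on log2(TPM + 1) and log2(TPM + 0.1), and each library left out. On simulated counts with 200 of 14228 genes given a log2 fold change of 2, edgeR found 101 of them with 5 unchanged genes, and DESeq2 found 144 with 45.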

Additional observations from a re-analysis of the deposited data

Results flagged for a closer look

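In 78 sets of 4 libraries of 1 genotype, the lowest or highest library was compared with its nearest neighbor as a share of the whole range on the log2 scale, and 7 sets passed Dixon's 95% critical value for 4 values, where about 1 in 20 would by chance. Plscr1 in ΔAgo2 cells had a share of 0.836, since ΔAgo2 replicate 3 was at 173 CPM and the others at 122 to 129. In the same library Atg9b (0.89) was at 25 CPM against 11.3 to 12.3, and Abcc1 (0.899), a multidrug transporter gene, was at 644 CPM against 297 to 321. Nlgn2 (0.903), beside Plscr3, was at 66.9 CPM in ΔAgo2 replicate 4 against 93.3 to 96.7. In wild-type replicate 4, Ano3 (0.927) was at 0.9 CPM against 5.26 to 6.04, Lclat1 (0.924) at 28.7 CPM against 60.6 to 64.5, and the log2 ratio of Plscr1 to Plscr3 (0.851) at -0.41 against 1.25 to 1.54. No cause was tested for these values.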

How the results depend on the processing

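The 42 genes with an adjusted p under 0.05 became 399 with DESeq2, 143 without the filter on low counts, 71 with the GC correction, 3 with limma on log2(TPM + 1), and 1 to 113 with a library left out (12, 78 and 113 without wild-type replicates 1, 2 and 4, 1 without ΔAgo2 replicate 1, and 7 without each of ΔAgo2 replicates 2, 3 and 4). A replicate block in the fit gave 18, and 66 with the GC correction and the block. The numbers did not pair the libraries, as the correlations of same-numbered deviations were -0.138, -0.0491, 0.384 and 0.0278, and 1 of 4 wild-type libraries correlated best with its own number. Plscr3 turned from -0.16 to 0.03 with library size alone, 0.048 with the replicate block, 0.21 with the GC correction, 0.25 with both, 0.24 with limma on either log2 TPM scale and 0.37 without wild-type replicate 4, a range of -0.37 to 0.37 over the libraries left out. Among the 12 alternatives run for them, the ratios to Plscr3 turned only without wild-type replicate 4. They went to -0.059 for Plscr1 (range 0.59 down to -0.059) and -0.10 for Plscr4 (0.98 down to -0.10). Ifih1 made the interferon-stimulated list's count 1 with DESeq2, without the filter, with the GC correction, with limma on log2(TPM + 0.1) and without wild-type replicate 4 (0 to 1 over the libraries left out), the floppase list's count was 1 with DESeq2 (Abcg1), and the neighbors' was 3 with DESeq2. The fold changes and counts of calls had 17 alternatives each and the ratios 12. Tool and filter settings do not apply to a ratio of TPM, and no GC correction was run on the ratios. An effect of GC content need not cancel in them, as Plscr3 is richer in GC than the chromosome 9 members. With the GC correction the log2 fold changes were 0.035 for Plscr1, 0.29 for Plscr4 and 0.21 for Plscr3. In a comparison added after seeing the data, 863 genes had CPM values that did not overlap between the groups and 1717 did without wild-type replicate 4 (12.1%), Plscr2 among them in both. The cause of these shifts was not tested. With 4 libraries a group and this spread, log2 fold changes of 0.39 (SE 0.29) for Plscr1 and 0.45 (SE 0.41) for Plscr4 could not be told from 0.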
